A study of Mus musculus with 6 samples.

Results

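Lysine acetyltransferases attach acetyl groups to lysines of histones and other proteins, and zinc-dependent deacetylases and the NAD+-dependent sirtuins take them off. The 32 mouse genes described here were chosen by name as members of these 3 enzyme families, and all 32 were found among the 24982 genes of the authors' deposited table. They are 14 acetyltransferases, 11 zinc-dependent deacetylases and 7 sirtuins. The rule uses no measured value, but the members were chosen with earlier results of these data known.

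RNA was sequenced from cumulus granulosa cells, the somatic cells that surround the oocyte, of Kun-Ming mice, an outbred stock. The libraries fall into 3 labelled Atg5-KD, from cells transfected with short hairpin RNAs against Atg5, and 3 labelled control. What the control cells received, the age of the mice and whether libraries stand for separate animals or cultures are not given in the sources used here. The p-values therefore set the difference between the groups against the spread of these 6 libraries only, and that spread may be technical. Atg5 encodes a protein needed to form autophagosomes, and the series title links autophagy to the breakdown of ATP citrate lyase, the enzyme that makes cytosolic acetyl-CoA from citrate.

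Acetyl-CoA is the acetyl donor of every lysine acetyltransferase, so the activity of these enzymes is coupled to the supply of that metabolite. Deacetylases of classes I, II and IV use a bound zinc ion, whereas sirtuins consume NAD+. In the ovary, histone acetylation in granulosa cells is known to change at steroidogenic and ovulatory genes when the follicle is stimulated. The comparison addressed here is how the transcripts of the writers and erasers of acetyl marks differ between libraries labelled Atg5-KD and control.

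The authors' deposited table gives for each gene a base mean in normalized counts over all libraries, a log2 fold change with its standard error (SE), and a Wald p adjusted by the Benjamini-Hochberg method over 14835 tested genes. It holds no value for a single library, so the level in each group is given below as an estimate from the base mean and the fold change, and whether libraries of both groups overlapped could not be seen. From genes with a single read, depth was estimated at between 11300000 and 12900000 counted reads per library labelled Atg5-KD and between 16500000 and 17900000 per control library. The ribosomal RNA locus Rn45s took an estimated 17.9% of counted reads in libraries labelled Atg5-KD and 1.17% in control libraries. Atg5 itself, the target of the hairpins, had an estimated 397 normalized counts in libraries labelled Atg5-KD and 414 in control libraries, with a log2 fold change of -0.06 (95% interval -0.34 to 0.21) by the authors' deposited table. The transcript level of the target thus does not bear out the Atg5-KD label, and its interval covers both no change and a modest fall. The libraries are named here by their label, in every direction that is given. Library titles read ko and ctr, with the same replicate numbers in both groups, and a pairing by number could not be examined. The fold change is taken as libraries labelled Atg5-KD over control because the table is named in that order, and no column states the direction. Granulosa markers were abundant, led by Gja1, the gap junction connexin, at a base mean of 37682 and Inha, the inhibin alpha subunit, at 30063 by the authors' deposited table, while Amh at 6.07 and Cyp19a1 at 2.34 were near absent.

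Across the 32 members, 4 were higher and 3 were lower in libraries labelled Atg5-KD at an adjusted p under 0.05 by the authors' deposited table, and 25 did not pass the test. That is 21.9% of the members, against a background of 20.9% of all tested genes called in either direction, 10.4% higher and 10.5% lower. The 4 higher members were Ncoa1, Clock, Kat6a and Sirt1, and the 3 lower members were Hdac11, Hdac5 and Sirt6. The called changes were small, between 1.25-fold for Sirt6 and 1.63-fold for Hdac11 in the authors' deposited table. In the authors' deposited table acetyltransferases had a median log2 fold change of 0.17 with 10 of 14 above 0, a median that became -0.13 when values were scaled to all counted reads, Rn45s included. Zinc-dependent deacetylases had a median of -0.20 with 9 of 11 below 0, and sirtuins a median of -0.22 with 6 of 7 below 0, against a median of 0.00 over all tested genes in the authors' deposited table. With the trend in GC content, length and base mean over all genes removed, as described further on, acetyltransferases had a median of 0.08 with 12 of 14 above 0, deacetylases one of -0.15 with 7 of 11 below 0 and sirtuins one of -0.07 with 4 of 7 below 0. Scaling to all reads shifts every log2 fold change by -0.30 and the median of all tested genes to -0.29, after which 0 members were higher and 17 were lower (the same counts at an unadjusted p under 0.05), against 42.3% of all tested genes called, 3.6% higher and 38.7% lower. Centring on the median left 4 members higher and 3 lower, against 20.9% of genes called, 10.7% higher and 10.2% lower. Without the filter on low means, 3 members were higher and 2 lower, against 15.1% of genes, 7.57% higher and 7.54% lower. Among genes with a base mean of at least 50, 4 members were higher and 6 lower, or 32.3%, against 25.9% of genes, 12.6% higher and 13.3% lower. At an adjusted p under 0.01, 3 members were higher and 2 lower, against 13.9% of genes, 6.92% higher and 6.94% lower. A log2 fold change of at least 0.5 was reached by 0 higher and 1 lower of the called members, against 11.2% of genes, 5.7% higher and 5.46% lower. With no fold limit, 6 of the 32 members were higher and 8 lower at an unadjusted Wald p under 0.05. Of all 14835 tested genes, 2317 were higher and 2357 lower by that measure. The members' share of calls thus lay near the background as deposited, and below it where a fold limit was set or the trend was removed. It lay above the background at a base mean of at least 50 and when scaled to all reads, at 53.1% against 42.3%.

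**Figure D1:**
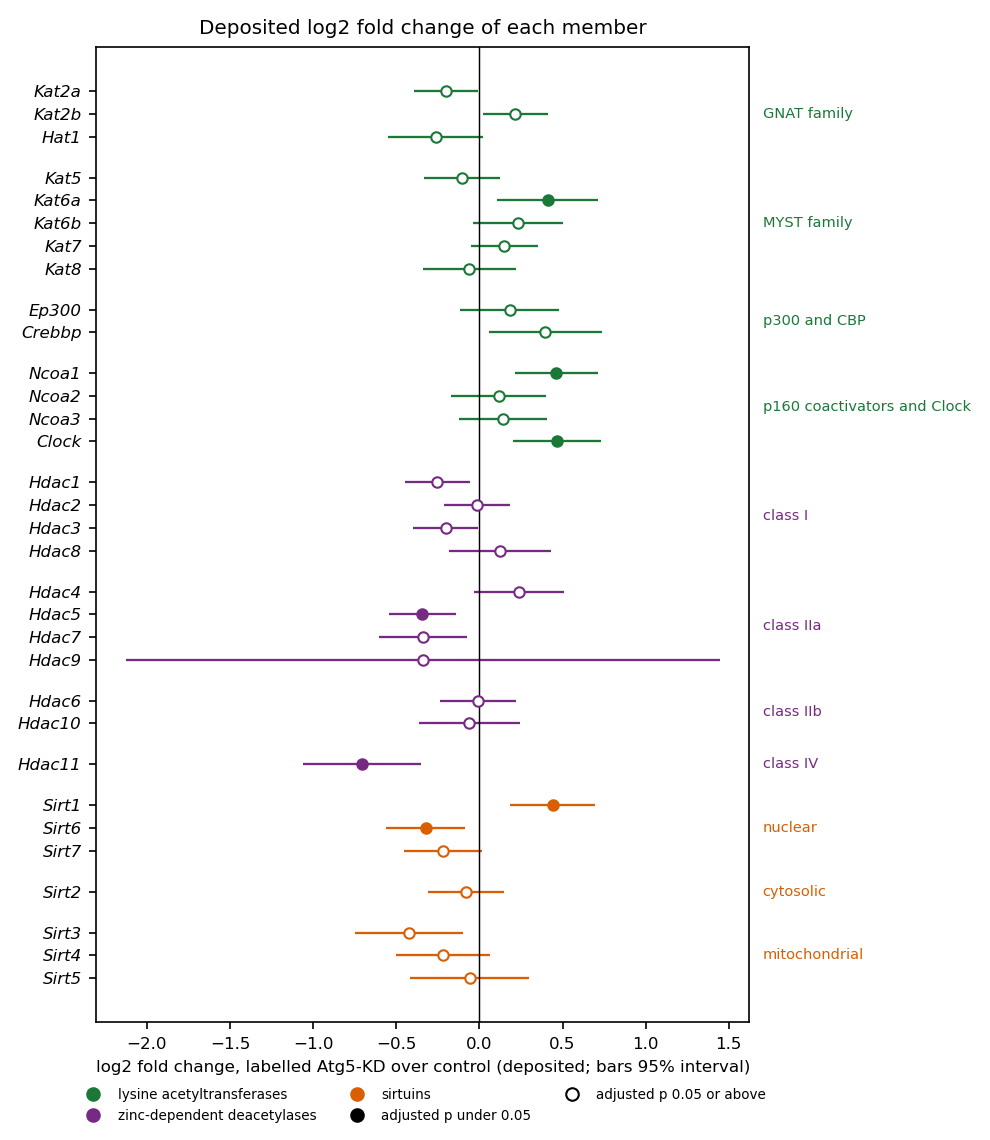
Deposited log2 fold change of each member, labelled Atg5-KD over control, with 95% intervals as bars; colour marks the enzyme family and filled points have an adjusted p under 0.05. Ncoa1, Clock, Kat6a and Sirt1 lie to the right of 0, Hdac11, Hdac5 and Sirt6 to the left, and Hdac9 has by far the widest interval.

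Promoters of the members that passed the test spanned a wide range of base composition. RefSeq promoter windows, from 250 bases before to 50 after a gene's start on GRCm38.p6, were at hand for 26 of the 32 members, among them 6 of the 7 that passed the test. GC content was 84.7% at Ncoa1, 79.0% at Sirt1 and 76.3% at Clock, which were higher in libraries labelled Atg5-KD. It was 66.7% at Hdac11, 60.7% at Hdac5 and 57.3% at Sirt6, which were lower. The median was 60.8% over the 26 windows and 52.7% over one window for each of 27025 genes. Windows of 4 called members are shown, Ncoa1 and Hdac11 because their calls also held once the trend with base composition, described further on, was removed, and Sirt1 and Hdac5 because they hold the E-box, the motif that Clock and its partners bind. Capitals mark the E-box CACGTG and the GC box GGGCGG on either strand, and neighbouring GC boxes overlap in the Sirt1 window. All 4 are written 5′ to 3′ on the gene's strand, which is minus for Ncoa1 (chr12:4477133-4477432), Sirt1 (chr10:63338986-63339285) and Hdac5 (chr11:102230123-102230422) and plus for Hdac11 (chr6:91156565-91156864). The RefSeq start of Sirt1 lies inside the GENCODE span of the gene given further on.
Ncoa1: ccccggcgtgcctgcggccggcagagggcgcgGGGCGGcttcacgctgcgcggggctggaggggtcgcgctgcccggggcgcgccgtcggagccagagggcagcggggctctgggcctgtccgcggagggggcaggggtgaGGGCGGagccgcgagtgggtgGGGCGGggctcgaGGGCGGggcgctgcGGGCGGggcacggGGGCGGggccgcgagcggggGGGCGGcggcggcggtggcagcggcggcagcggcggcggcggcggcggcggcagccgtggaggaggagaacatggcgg
Sirt1: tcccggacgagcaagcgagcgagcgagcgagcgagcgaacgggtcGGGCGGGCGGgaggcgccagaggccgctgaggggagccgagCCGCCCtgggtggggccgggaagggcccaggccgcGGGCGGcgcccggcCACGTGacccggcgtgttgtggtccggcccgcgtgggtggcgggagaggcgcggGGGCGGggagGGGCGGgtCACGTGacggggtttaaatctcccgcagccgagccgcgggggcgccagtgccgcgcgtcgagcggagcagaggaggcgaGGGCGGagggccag
Hdac11: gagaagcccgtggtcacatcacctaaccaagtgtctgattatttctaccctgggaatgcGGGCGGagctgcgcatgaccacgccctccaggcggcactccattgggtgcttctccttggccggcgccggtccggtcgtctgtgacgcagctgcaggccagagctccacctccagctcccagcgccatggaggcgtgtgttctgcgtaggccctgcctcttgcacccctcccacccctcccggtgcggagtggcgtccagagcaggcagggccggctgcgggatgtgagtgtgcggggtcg
Hdac5: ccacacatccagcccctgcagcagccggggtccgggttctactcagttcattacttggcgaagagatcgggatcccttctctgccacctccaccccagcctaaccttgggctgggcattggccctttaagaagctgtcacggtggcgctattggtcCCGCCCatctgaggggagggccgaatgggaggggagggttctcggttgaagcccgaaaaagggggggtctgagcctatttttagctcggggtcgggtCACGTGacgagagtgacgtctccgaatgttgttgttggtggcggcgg
The Ncoa1 and Sirt1 windows each hold 7 GC boxes, and those of Hdac11 and Hdac5 hold 1 each.

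E-boxes stood in 4 of the 26 member windows (15.4%), 2 in Sirt1 and 1 each in Hdac5, Hat1 and Kat5, against 7.24% of all windows. GC boxes stood in 16 of 26 (61.5%), against 35.9% of all windows. The cAMP response element TGACGTCA was in 0 of 26 member windows and in 1.85% of all windows. Both strands were searched in each case, and a match describes letters in this window only.

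Ncoa1 and Clock were the acetyltransferases that rose most. Ncoa1 (chromosome 12, 4247362 to 4477182), a coactivator that steroid receptors recruit together with p300 and CBP, had an estimated 875 normalized counts in libraries labelled Atg5-KD and 635 in control libraries. The authors' deposited table puts it at a log2 fold change of 0.46 ± 0.13 (SE, Wald adjusted p = 0.00277), a 1.38-fold rise. Clock (chromosome 5, 76209868 to 76304792), a circadian transcription factor for which acetyltransferase activity has been reported, had an estimated 1405 normalized counts in libraries labelled Atg5-KD and 1017 in control libraries. It stood at 0.47 ± 0.14 (SE, Wald adjusted p = 0.00481) in the authors' deposited table, a call that ended with the trend removed. The paralogues of Ncoa1, which are coactivators of the same kind, did not pass the test, with Ncoa2 at 0.12 and Ncoa3 at 0.14 in the authors' deposited table. Their 95% intervals reached rises of 32.2% and 32.4%, so rises of the size seen for Ncoa1 lay outside them, although the difference between the paralogues was not tested. Ncoa3 shares 1.95% of its exonic bases with Sulf2 on the opposite strand. Sulf2 had a base mean of 10053 and stood at -0.49 (Wald adjusted p = 1.66e-05) in the authors' deposited table. The strandedness of the counting is not given, so part of the Ncoa3 count may belong to Sulf2.

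Within the MYST family 1 of 5 genes was called higher, against 10.4% of all tested genes. Kat6a (chromosome 8, 22859535 to 22943259), which acetylates histone H3 in complexes with BRPF proteins, had an estimated 1693 normalized counts in libraries labelled Atg5-KD and 1274 in control libraries, a log2 fold change of 0.41 ± 0.16 (SE, Wald adjusted p = 0.0424) in the authors' deposited table that was not called with the trend removed. Its paralogue Kat6b was at 0.23 (Wald adjusted p = 0.248), and Kat7, which acetylates histone H3 and H4 and works at replication origins, at 0.15 (Wald adjusted p = 0.327) in the authors' deposited table. Kat5, the catalytic subunit of the NuA4 complex, was at -0.10 and Kat8, which acetylates histone H4 in the MSL and NSL complexes, at -0.06 in the authors' deposited table. None of these 4 passed the test, and the 95% interval of the change at Kat8 ran from -21.0% to 16.4%. Kat5 shares 12.1% of its exonic bases with Rnaseh2c on the opposite strand, and since the strandedness of the counting is not given, reads of both genes there cannot be told apart.

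Neither p300 nor CBP, the coactivators that acetylate histones at enhancers, passed the test. Ep300 had an estimated 2430 normalized counts in libraries labelled Atg5-KD and 2139 in control libraries, and stood at 0.18 ± 0.15 (SE, Wald adjusted p = 0.438) in the authors' deposited table. Crebbp had an estimated 1333 normalized counts in libraries labelled Atg5-KD and 1012 in control libraries, at 0.40 ± 0.17 (SE, Wald adjusted p = 0.0902) in the authors' deposited table. The fold change of Crebbp was thus close to that of Kat6a, with a larger standard error and an adjusted p above the threshold.

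Of the GNAT family 0 of 3 genes passed the Wald test of the authors' deposited table, against 20.9% of all tested genes. Kat2b was higher and Kat2a lower at an unadjusted Wald p under 0.05. Kat2a and Kat2b, alternative catalytic subunits of the SAGA and ATAC complexes, lay on opposite sides of 0 in the authors' deposited table, at -0.20 ± 0.10 (SE, Wald adjusted p = 0.134) and 0.22 ± 0.10 (SE, Wald adjusted p = 0.115). Estimated normalized counts of Kat2a were 1186 in libraries labelled Atg5-KD and 1364 in control libraries, and those of Kat2b were 1128 in libraries labelled Atg5-KD and 970 in control libraries. Hat1, which acetylates newly made histone H4 before it is placed on DNA, was at -0.26 (Wald adjusted p = 0.201) in the authors' deposited table. In all, 0 of 14 acetyltransferases were called lower by the Wald test, against 10.5% of all tested genes. At an unadjusted Wald p under 0.05, 1 of the 14 was lower, against 2357 of 14835 tested genes.

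Among zinc-dependent deacetylases, Hdac11 fell most. Hdac11 (chromosome 6, 91156665 to 91174692), the single class IV enzyme, which removes fatty acyl groups from lysines, had an estimated 118 normalized counts in libraries labelled Atg5-KD and 193 in control libraries. Its log2 fold change of -0.71 ± 0.18 (SE, Wald adjusted p = 0.00109) was the largest in size of the 32 members in the authors' deposited table. Annotated genes on the opposite strand cover 15.4% (Gm44002) and 2.49% (Gm14573) of its exonic bases, so part of its count may belong to them. Hdac5 (chromosome 11, 102194432 to 102230166), a class IIa enzyme that moves between cytoplasm and nucleus and represses MEF2 factors, had an estimated 1327 normalized counts in libraries labelled Atg5-KD and 1683 in control libraries, and by the authors' deposited table fell 1.27-fold, with a Wald adjusted p of 0.00629 and no call once the trend was removed. No deacetylase was called higher, against 10.4% of all tested genes. At an unadjusted Wald p under 0.05, 0 of 11 were higher, against 2317 of 14835 tested genes.

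The other class IIa genes differed in level and precision. Hdac7, known for its part in endothelium and lymphocytes, had an estimated 532 normalized counts in libraries labelled Atg5-KD and 672 in control libraries, at -0.34 ± 0.14 (SE, Wald adjusted p = 0.0581) in the authors' deposited table, a fold change like that of Hdac5 with a wider error. Hdac4 was at 0.24 (Wald adjusted p = 0.229) in the authors' deposited table, with 22.4% of its exonic bases also annotated to the opposite-strand RNA Gm26720. Hdac9 had a base mean of 5.60 and stood at -0.34 ± 0.91 (SE) in the authors' deposited table. The 95% interval of its change ran from -77.1% to 172%, so no difference of moderate size was detectable at this depth.

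Class I enzymes, among them the catalytic subunits of the main corepressor complexes, did not pass the test in any of 4 cases. Of all tested genes 20.9% passed. At an unadjusted Wald p under 0.05, 2 of the 4 were lower, against 2357 of 14835 tested genes. Hdac1 had an estimated 1727 normalized counts in libraries labelled Atg5-KD and 2058 in control libraries, at -0.25 ± 0.10 (SE, Wald adjusted p = 0.0549) in the authors' deposited table. Its paralogue Hdac2, found in the same Sin3, NuRD and CoREST complexes, had an estimated 2182 normalized counts in libraries labelled Atg5-KD and 2201 in control libraries. For Hdac2 the authors' deposited table gives a change with a 95% interval of -13.6% to 13.8%. Hdac3, the enzyme of the NCoR and SMRT complexes, was at -0.20 (Wald adjusted p = 0.137) and Hdac8, which deacetylates cohesin, at 0.12 (Wald adjusted p = 0.642) in the authors' deposited table. Of class IIb, Hdac6, the tubulin deacetylase, was at -0.01 and Hdac10, a polyamine deacetylase, at -0.06 in the authors' deposited table. The 95% interval of the change at Hdac6 ran from -15.1% to 16.3%.

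Of the 3 nuclear sirtuins, Sirt1 was called higher and Sirt6 lower, and both calls ended with the trend removed, at 0.30 (adjusted p = 0.117) for Sirt1 and -0.10 (adjusted p = 0.722) for Sirt6 on the log2 scale. Sirt1 (chromosome 10, 63319005 to 63381704), which deacetylates histones, p53 and PGC-1 alpha, had an estimated 529 normalized counts in libraries labelled Atg5-KD and 390 in control libraries. It rose 1.36-fold in the authors' deposited table, at 0.44 ± 0.13 (SE, Wald adjusted p = 0.00591). Sirt6 (chromosome 10, 81621785 to 81627797), a histone H3 deacetylase with roles in DNA repair and in repression of glycolytic genes, had an estimated 398 normalized counts in libraries labelled Atg5-KD and 498 in control libraries. By the authors' deposited table it fell by 0.32 on the log2 scale, with an SE of 0.12 (Wald adjusted p = 0.0404). The nucleolar enzyme Sirt7, which acts on RNA polymerase I transcription, was at -0.22 (Wald adjusted p = 0.202) in the authors' deposited table.

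Outside the nucleus 0 of 4 sirtuins passed the Wald test of the authors' deposited table, against 20.9% of all tested genes. Sirt3, the main deacetylase of the mitochondrial matrix, had an estimated 193 normalized counts in libraries labelled Atg5-KD and 259 in control libraries, at -0.42 ± 0.17 (SE, Wald adjusted p = 0.0518) in the authors' deposited table, and was the 1 of these 4 at an unadjusted p under 0.05. Exons on the opposite strand, of Ric8a and Psmd13, cover 7.0% and 5.73% of its exonic bases, and both of those genes were near 0 in the authors' deposited table, at -0.04 and -0.02. Sirt4, a mitochondrial enzyme with lipoamidase activity, was at -0.22, and Sirt5, which removes succinyl and malonyl groups, at -0.06 in the authors' deposited table. Sirt2, which deacetylates tubulin in the cytosol, was at -0.08 in the authors' deposited table, where the 95% interval of its change ran from -19.2% to 10.7%.

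Per length of transcript, 3 of the 4 class I deacetylases were the most abundant members. On the scale of base mean per kb, from the authors' deposited base means and the GENCODE transcript lengths, Hdac1 led with 929 normalized counts per kb, followed by Hdac2 with 674 and Hdac3 with 597. Kat2a was the most abundant acetyltransferase at 419 and Sirt2 the most abundant sirtuin at 356 normalized counts per kb. Ep300 at 239 stood above Crebbp at 108, and Kat6a at 163 above Kat6b at 98.0 normalized counts per kb. Among the members that passed the test, Hdac5 was at 310, Sirt6 at 237, Kat6a at 163, Clock at 124, Sirt1 at 104, Ncoa1 at 103 and Hdac11 at 58.6 normalized counts per kb. Hdac9, at 0.71, was the lowest of all. The spread of these levels over libraries was not analysed here, so neighbours in this order cannot be told apart by a test.

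**Figure D2:**
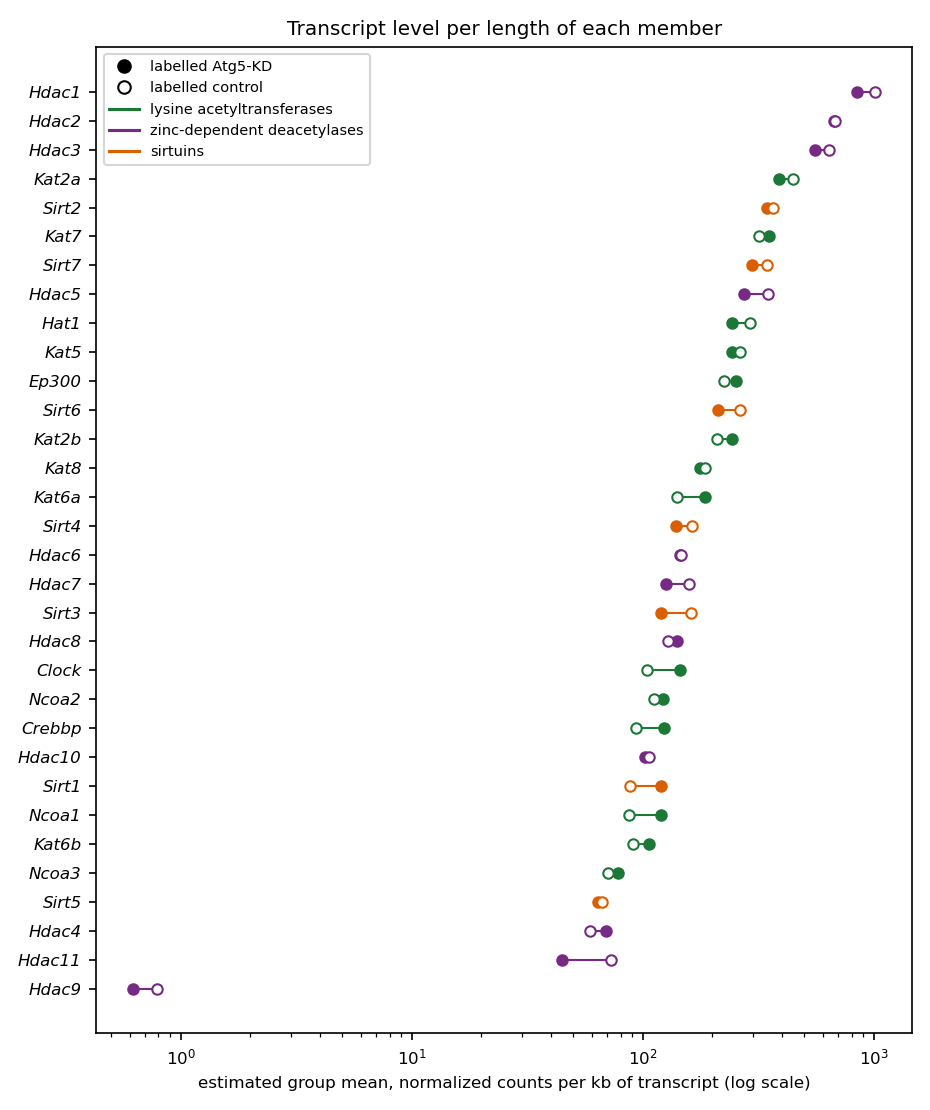
Estimated group mean of each member in normalized counts per kb of transcript, on a log axis, with libraries labelled Atg5-KD as filled and control libraries as open points and colour for the enzyme family. Hdac1, Hdac2 and Hdac3 stand highest and Hdac9 far below all others, and the widest gap between the groups among well-measured members is that of Hdac11.

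Fold changes of the members varied with the GC content and length of their transcripts, and over genes at large with GC content and, more weakly, with length. Over all tested genes with a matched transcript, split into 5 bins of equal size by GC content, 22.8% of the bin with the lowest GC content were called higher and 3.7% lower from the authors' deposited table. In the bin with the highest GC content 2.92% were called higher and 22.6% lower. The authors' deposited table gives these bins median log2 fold changes of 0.20 at the lowest and -0.20 at the highest GC content. The 4 members that rose had transcripts of 40.9% to 48.7% GC and 4430 to 9744 bases. The 3 members that fell had 57.4% to 58.8% GC and 1891 to 4852 bases, and all 3 lie in the bin with the highest GC content. Across the 32 members the log2 fold change had a Pearson r of -0.55 and a Spearman rho of -0.53 with GC content, and a rho of 0.62 with length. Over all 14716 tested genes with a matched transcript these were -0.24, -0.37 and 0.14. These correlations across genes are a description, since genes share libraries and are not independent replicates.

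**Figure D3:**
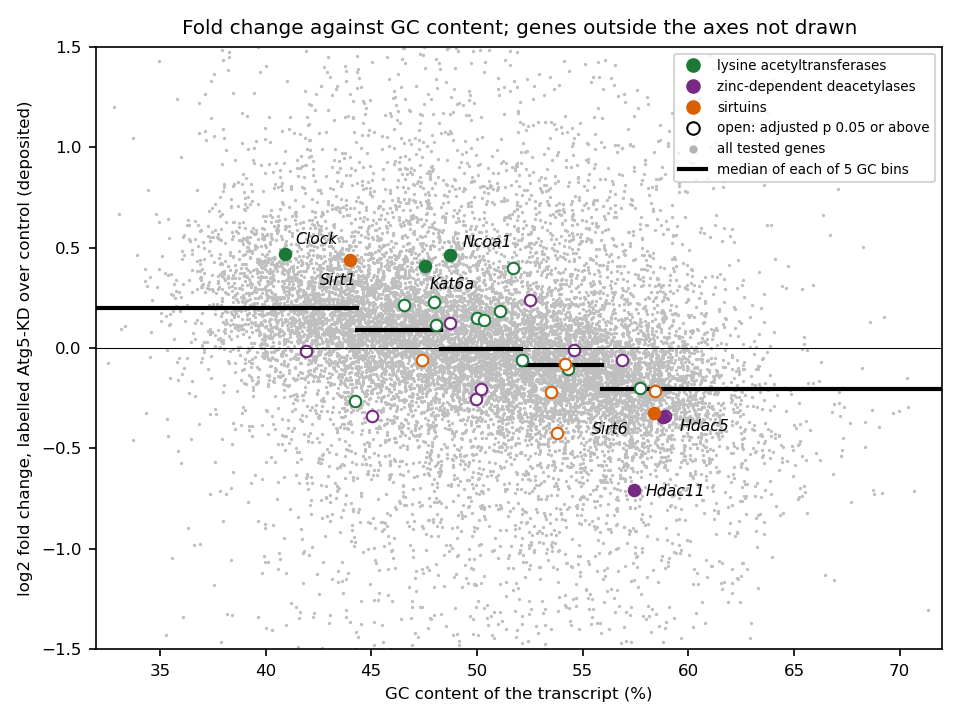
Deposited log2 fold change against GC content of the transcript for all tested genes (grey), with the members coloured by family and filled where the adjusted p was under 0.05. Black bars give the median of each of the 5 bins by GC content, which run from 0.20 down to -0.20. Filled members above 0 lie between 40.9% and 48.7% GC, and filled members below 0 between 57.4% and 58.8% GC.

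Once the trend of the fold change with GC content, length and base mean over all tested genes was removed, 1 member was called higher and 1 lower. Ncoa1 then stood at 0.35 (adjusted p = 0.0489, Benjamini-Hochberg on the adjusted Wald statistics) and Hdac11 at -0.51 (adjusted p = 0.0388). The call ended for Sirt1, at 0.30 (adjusted p = 0.117), Kat6a, at 0.23 (adjusted p = 0.400), and Clock, at 0.12 (adjusted p = 0.683). It also ended for Hdac5, at -0.15 (adjusted p = 0.405), and Sirt6, at -0.10 (adjusted p = 0.722). In that fit 6.25% of the members were called, against 13.3% of genes, 6.19% higher and 7.09% lower. Scaled to all reads, the calls of Ncoa1, Clock, Kat6a and Sirt1 ended with values between 0.11 and 0.17, while Hdac11, Hdac5 and Sirt6 remained lower at -1.0, -0.64 and -0.62. Hdac11 was the 1 member that kept its call and direction under both.

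**Figure D4:**
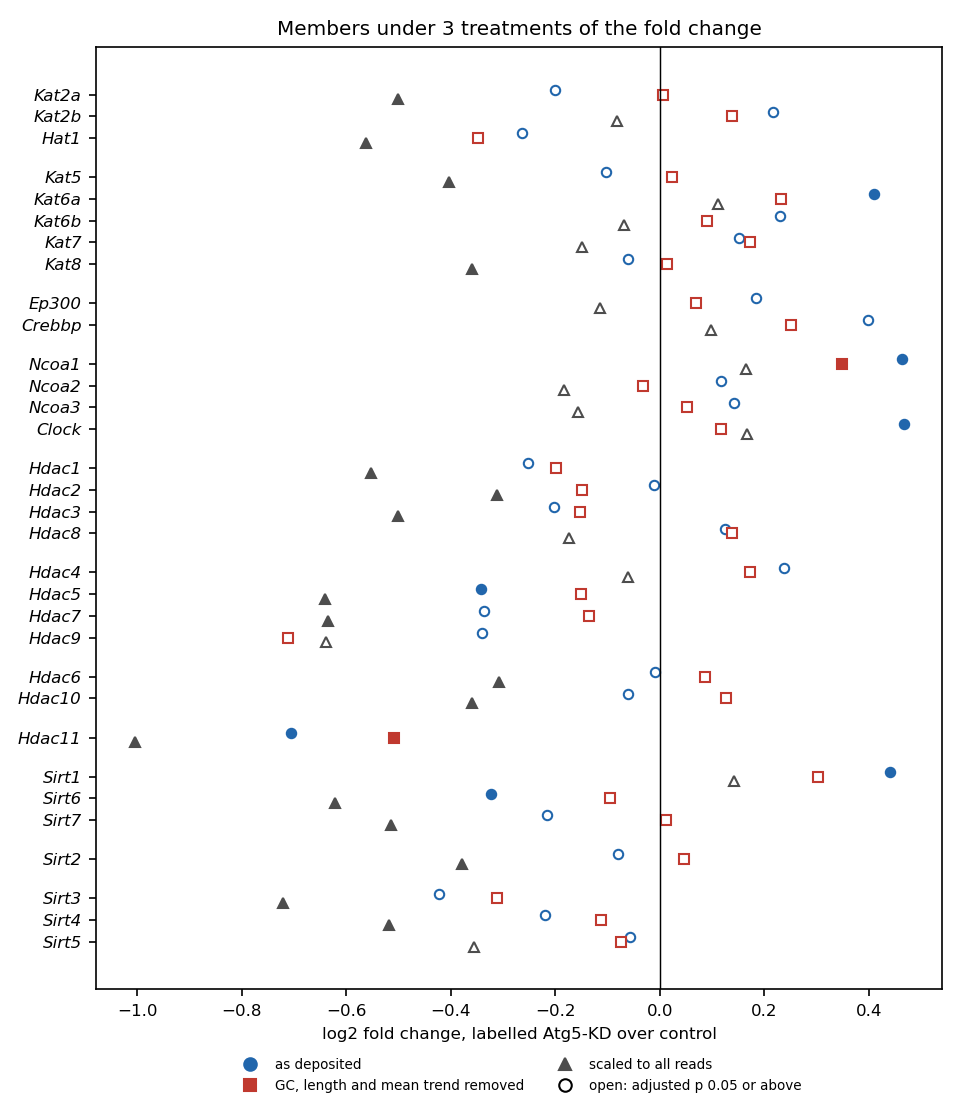
Log2 fold change of each member as deposited (circles), with the trend in GC content, length and mean removed (squares) and scaled to all reads (triangles), filled where the adjusted p was under 0.05. With the trend removed the filled squares are Ncoa1 and Hdac11, and scaling to all reads moves every member to the left by 0.30.

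Markers of other cell types also differed between the groups. Leukocyte markers were lower in 10 of 15 tested cases in the authors' deposited table, against 10.5% of all tested genes, with estimated summed levels over the 16 genes of the list of 589 normalized counts in libraries labelled Atg5-KD and 2330 in control libraries. Lyz2 and Cd68, the most abundant, were at -2.14 and -1.09 in the authors' deposited table. Smooth muscle and stroma markers were lower in 13 of 14 cases, with summed levels of 10275 normalized counts in libraries labelled Atg5-KD and 20485 in control libraries, and Acta2 and Tagln at -1.17 and -1.26 in the authors' deposited table. Endothelial markers passed the Wald test in 0 of 7 tested cases (unadjusted p under 0.05 in 0 higher and 1 lower), with Egfl7 at 0.28 and Eng at -0.54 in the authors' deposited table. Oocyte markers passed in 0 of 5 (0 at an unadjusted p under 0.05), with Gdf9 and Zp2 at low base means of 19.8 and 15.8 in the authors' deposited table. Among 10 tested granulosa markers 3 were higher and 3 lower, or 60.0% called, against 20.9% of all tested genes. Gja1 was lower at -0.33 and Inha, which was not called, was at -0.14 in the authors' deposited table. Named after their values were seen, the higher genes were Kitl at 0.78, Nr5a2 at 0.62 and Inhba at 0.45 in the authors' deposited table. The other lower genes, also named after their values were seen, were Inhbb at -1.14 and Foxl2 at -0.49. In a bulk sample, fewer cells of a type and less RNA per cell cannot be told apart, and the part of these cell types in the values of the members was not tested.

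Partner genes were described from 5 lists, beginning with subunits of acetyltransferase complexes. Of 45 tested, the authors' deposited table called 3 higher and 0 lower (unadjusted p under 0.05 in 5 higher and 2 lower), or 6.67% called, against 20.9% of all tested genes. Their median log2 fold change was 0.07 in the authors' deposited table and -0.23 when scaled to all reads, where all tested genes had a median of -0.29. Jade1, a scaffold of the Kat7 complex, rose most at 0.89 ± 0.13 (SE, Wald adjusted p = 7.4e-11), with an estimated 1945 normalized counts in libraries labelled Atg5-KD and 1048 in control libraries from the authors' deposited table. It was also higher with the trend removed, at 0.79, and scaled to all reads, at 0.59. Phf20, a subunit of the NSL complex of Kat8, was at 0.37 and Mbtd1, a subunit of NuA4, at 0.38 in the authors' deposited table, but their calls ended under either treatment. With all reads as the scale, 1 subunit was higher and 20 were lower, against 38.7% of all tested genes lower. With the trend removed, Jade1 alone was higher and 2 were lower, or 6.67% called, against 13.3% of all tested genes. The lower 2 were Jade3 at -0.44 and Eny2 at -0.34, both named after their values were seen.

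Subunits of the corepressor complexes that hold class I deacetylases were called in both directions. Of 41 tested, the authors' deposited table called 6 higher and 5 lower, or 26.8%, against 20.9% of all tested genes, 10.4% higher and 10.5% lower, with a median of -0.05. The scaffold Tbl1x of the NCoR complex was at 0.50, the Sin3 subunit Arid4b at 0.43 and the CoREST partner Zmym2 at 0.38, while the NuRD subunit Mta1 was at -0.37 in the authors' deposited table. Named after their values were seen, the other higher genes were Tbl1xr1 at 0.38, Rcor1 at 0.41 and Ncor1 at 0.33 in the authors' deposited table. The other lower genes, also named after their values were seen, were Gps2 at -0.40, Mbd3 at -0.37, Zmym3 at -0.34 and Hmg20b at -0.31 in the authors' deposited table. Genes of both directions thus stood in the same complex, with Tbl1x, Tbl1xr1 and Ncor1 higher and Gps2 lower in the NCoR complex. With the trend removed, 0 of the 41 were called, against 13.3% of all tested genes (unadjusted p under 0.05 by the same Wald statistics in 3 higher and 2 lower). Scaled to all reads 0 were higher and 25 lower, or 61.0% called against 42.3% of all tested genes, with 0 higher and 29 lower unadjusted.

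Readers of acetyl-lysine were higher more often than lower, with 9 of 29 called higher and 1 lower by the authors' deposited table, or 34.5%, against 20.9% of all tested genes, 10.4% higher and 10.5% lower. Their median was 0.23 in the authors' deposited table and -0.07 when scaled to all reads, where that of all tested genes was -0.29. Phip, Brwd1 and Brwd3, which share tandem bromodomains and WD repeats, were at 0.83, 0.69 and 0.63, and the bromodomain ATPase Atad2b at 0.70 in the authors' deposited table. Estimated normalized counts of Phip were 3015 in libraries labelled Atg5-KD and 1699 in control libraries. Phip, Brwd1 and Atad2b were also higher with the trend removed, at 0.42, 0.45 and 0.45, and scaled to all reads, at 0.53, 0.39 and 0.40. The 1 lower gene, named after its value was seen, was the YEATS protein Mllt1 at -0.27 in the authors' deposited table. Brd2 and Smarca4 had the highest base means of the list and were at 0.02 and -0.18 in the authors' deposited table, named here after their values were seen. Scaled to all reads 3 readers were higher and 8 lower, or 37.9% called, against 42.3% of all tested genes. With the trend removed 3 were higher and 1 lower, or 13.8% called, against 13.3% of all tested genes. The lower gene in that fit, chosen for mention with its value in view, was Mllt3 at -0.49.

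In NAD+ metabolism, which feeds the sirtuins, the authors' deposited table called 2 of 15 tested genes higher and 0 lower, or 13.3% called. Of all tested genes 20.9% were called, 10.4% higher and 10.5% lower. At an unadjusted Wald p under 0.05, 2 genes of the list were higher and 1 lower. Nampt, the rate-limiting enzyme of NAD+ salvage, had an estimated 1026 normalized counts in libraries labelled Atg5-KD and 652 in control libraries, at 0.65 ± 0.11 (SE, Wald adjusted p = 1.96e-08) in the authors' deposited table. Nmrk1, a kinase of nicotinamide riboside, had an estimated 155 normalized counts in libraries labelled Atg5-KD and 81.1 in control libraries, at 0.94 ± 0.22 (SE, Wald adjusted p = 0.000232) in the authors' deposited table. Both were also higher with the trend removed, at 0.43 and 0.82, and scaled to all reads, at 0.35 and 0.64. Scaled to all reads, 2 genes of the list were higher and 5 lower, or 46.7% called, against 42.3% of all tested genes.

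Of the genes that supply acetyl-CoA, the authors' deposited table called 0 of 19 tested higher and 2 lower, or 10.5% called against 20.9% of all tested genes, with 0 and 3 at an unadjusted p under 0.05. Pdp1 and Pdk2, a phosphatase and a kinase that act on pyruvate dehydrogenase in opposite ways, were at -0.39 and -0.42 in the authors' deposited table. Acly, which encodes ATP citrate lyase, did not pass the test, at 0.17 ± 0.10 (SE, Wald adjusted p = 0.252) in the authors' deposited table. With the trend removed 2 genes were lower, Pdp1 at -0.62 and Pdk1, a further kinase of pyruvate dehydrogenase named after its value was seen, at -0.54, while the call of Pdk2 ended at -0.23. In that fit 10.5% of the list were called, against 13.3% of all tested genes. The authors' deposited table has Pdk1 at -0.44 (Wald adjusted p = 0.0558). Scaled to all reads 0 genes of the list were higher and 12 lower, or 63.2% called, against 42.3% of all tested genes, 38.7% lower. At an unadjusted p under 0.05 by the same Wald statistics, 0 were higher and 14 lower.

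**Figure D5:**
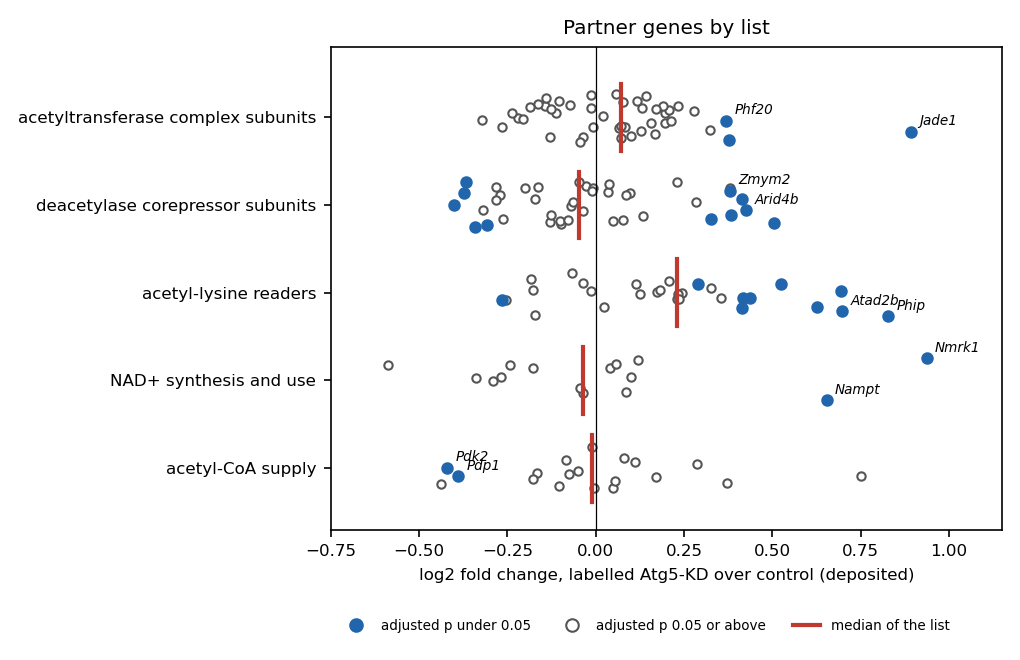
Deposited log2 fold change of the tested partner genes in each list, filled where the adjusted p was under 0.05, with a red bar at the median of each list. Acetyl-lysine readers have the highest median at 0.23, and corepressor subunits have filled points on both sides of 0.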

How the data were processed

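Poly(A) RNA of 3 libraries labelled Atg5-KD and 3 labelled control was sequenced. Named in the submitters' processing notes, with no role or order, are DESeq2 1.30.1, StringTie 2.1.4, featureCounts 1.6.2, STAR and mm10, and the annotation and strandedness are not given in the sources used here. The one table used holds the authors' comparison. Per the file headers, the authors deposited a base mean, which is a normalized signal (mean read count divided by size factors), a log2 fold change with its log2 standard error, a Wald score, and a p-value with its adjusted p-value. Of 24982 rows, 19241 have a p-value and 14835 an adjusted p-value, which was checked to be the Benjamini-Hochberg adjustment (0 rows differed at a tolerance of 1e-06). Libraries are not held singly, so no count test was run.

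Group means were estimated from the base mean and fold change. Size factors, and from them depth, were estimated from base means of genes with 1 read. A call is a deposited adjusted p under 0.05; intervals are 95% Wald intervals from the deposited standard error. Length and GC content are those of the longest protein-coding GENCODE M21 transcript, matched for 99.2% of tested genes, and their trend with splines of 5 degrees of freedom was removed by a Huber fit in statsmodels 0.14.6, tested on simulated data. Positions are from GENCODE M21 and promoter sequences from RefSeq (GRCm38.p6). All members, up to 4 partners with the smallest adjusted p under 0.05 in each list and the 2 most abundant markers of each list are named. Members and lists were chosen with earlier results of these data known. Alternatives were another scaling, centring, filter, threshold or fold limit and removal of the trend.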

Additional observations from a re-analysis of the deposited data

How the results depend on the processing

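Direction and call stayed the same for 6 of the 32 members when scaled to all reads, for 19 with the trend removed, for 26 under the fold limit, for 28 of 31 with a base mean of at least 50, for 30 each with no filter and with an adjusted p under 0.01, and for 32 when centred on the median of genes with a base mean of at least 50. When scaled to all reads, 0 acetyltransferases were higher and 4 of 14 lower (28.6%), against 3.6% of all tested genes higher and 38.7% lower. In that scaling 0 deacetylases were higher and 8 of 11 lower (72.7%), and 0 sirtuins were higher and 5 of 7 lower (71.4%). In that scaling Kat2b reversed to -0.082, Kat6b to -0.069, Kat7 to -0.15, Ep300 to -0.12, Ncoa2 to -0.18, Ncoa3 to -0.16, Hdac8 to -0.17 and Hdac4 to -0.062, since a constant shift of -0.30 exceeds their deposited values. With the trend in GC content, length and mean removed, 1 acetyltransferase was higher, 1 deacetylase lower, and 0 sirtuins higher and 0 lower. Of all tested genes, 6.19% were higher and 7.09% lower in that fit. With the trend removed Kat2a reversed to 0.0063, Kat5 to 0.023, Kat8 to 0.014, Ncoa2 to -0.033, Hdac6 to 0.086, Hdac10 to 0.13, Sirt7 to 0.011 and Sirt2 to 0.045, and the cause was not tested. With only genes of a base mean of at least 50, 4 deacetylases and 2 sirtuins were lower, against 13.3% of genes. Hdac1, Hdac7 and Sirt3 were added there as fewer genes were tested. With no filter on low means Kat6a and Sirt6 lost their calls (adjusted p = 0.0548 and 0.0522), leaving 0 sirtuins lower, against 7.54% of genes. At an adjusted p under 0.01 0 sirtuins were lower, against 6.94% of genes. A log2 fold change of at least 0.5 left 0 acetyltransferases higher, 1 deacetylase lower and 0 sirtuins higher or lower. Of all tested genes, 5.7% were higher and 5.46% lower under that limit. No paired analysis was possible because the table holds no values per library, and for the same reason leaving out each library was not run. Depth limits Hdac9 most, at a base mean of 5.60.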
